A study of Homo sapiens with 10 samples.

Results

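FLAG-only peaks at gene starts are regions that were bound in the FLAG-ZMYND8 ChIP-seq of HEK293 cells, that touched no peak of the ZMYND8 ChIP-seq, and that lay near the start of a gene. They were chosen by values measured in both peak lists: a peak of the FLAG-ZMYND8 list was taken when it was under 1000 bp wide, shared no base with a ZMYND8 peak and had its midpoint within 3 kb of the 5′ end of any annotated gene on chromosomes 1 to 22 and X. Of 63688 FLAG-ZMYND8 peaks on these chromosomes, 62541 (98.2%) were narrow, 56301 (88.4%) were also free of ZMYND8 overlap, and 20552 (32.3%) met the whole rule. The ZMYND8 list held 15085 peaks. The limits of the rule fell in places where peaks continued on both sides. There were 146 FLAG-ZMYND8 peaks of 900 to 999 bp and 107 of 1000 to 1099 bp that were otherwise eligible, 294 FLAG-only peaks in the last 100 bp of the 3 kb window and 299 in the first 100 bp beyond it, and 277 FLAG-only peaks within 50 bp of a ZMYND8 peak with which they shared no base.

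ZMYND8 is a chromatin reader. Its neighbouring PHD finger, bromodomain and PWWP domain bind modified histone tails and DNA as one unit, with acetylated lysine 14 of histone H3 among the marks it recognises, and it is known as a partner of the NuRD co-repressor and of the histone demethylase KDM5C. Gene starts are nucleosome-depleted, flanked by well-placed nucleosomes that carry histone acetylation, and in vertebrates most of them lie in CpG islands, stretches where the CG dinucleotide has escaped loss.

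The cells were HEK293, an established line derived from human embryonic kidney. The series comprised 10 samples: ChIP of ZMYND8, FLAG-ZMYND8, H3K14ac and H3K27ac in 2 replicates each, and 2 inputs, of which 1 belonged to FLAG-ZMYND8. For FLAG-ZMYND8, anti-FLAG was used on Flp-In T-REx HEK293 cells in which full-length 3xFLAG-ZMYND8 had been induced with 10 nM doxycycline, so the tagged protein was made from a transgene beside the cell's own ZMYND8. For ZMYND8, the antibody was raised against ZMYND8 rather than a tag, and the labels describe cells carrying 3xFLAG-ZMYND8 or its N228F mutant without saying which. Chromatin was crosslinked and digested with micrococcal nuclease for both targets. The authors deposited 1 peak list per target, which holds positions but no read counts and no replicates. Depth is therefore unknown, no spread between replicates can be given, and the identity of the cells cannot be checked from these lists. Intervals below are 95% Wilson intervals of shares, or Newcombe intervals of their differences. They cover counting error only, since peaks and genes are not replicates. The 2 lists differ in antibody, in the protein they see and in number of peaks. The cells may also differ in induction, which the ZMYND8 labels do not state, and in the form of 3xFLAG-ZMYND8 carried. These differences cannot be told apart as the source of a FLAG-only peak.

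Sequences of 8 FLAG-only peaks run from CpG-dense to CpG-poor DNA. They do not show the repeated DNA that lay under some FLAG-only peaks and is described below. All are the reference strand of hg19, 5′ to 3′, with every CpG in capitals. The first comes from a locus that the study examined: chr16:1525432-1525598 lies between genes at -437 bp from the start of CLCN7, a lysosomal chloride transporter, and held 10 CpGs in 167 bp.
CLCN7: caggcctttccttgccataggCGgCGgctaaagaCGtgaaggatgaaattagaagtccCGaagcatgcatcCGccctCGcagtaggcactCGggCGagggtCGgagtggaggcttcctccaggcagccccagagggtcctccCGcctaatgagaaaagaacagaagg
The next 3 come from genes with the most FLAG-only peaks among those that also had a ZMYND8 peak. They are chr4:140098580-140098746 in a non-coding exon of an overlapping gene at -291 bp from ELF2, an ETS family transcription factor, chr1:18434071-18434237 between genes at -138 bp from IGSF21, an immunoglobulin superfamily protein, and chr19:45349004-45349170 between genes at -345 bp from NECTIN2, a cell adhesion molecule.
ELF2: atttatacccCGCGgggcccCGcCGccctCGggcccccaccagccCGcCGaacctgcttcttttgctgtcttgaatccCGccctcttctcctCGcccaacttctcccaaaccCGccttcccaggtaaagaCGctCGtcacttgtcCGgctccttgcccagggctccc
IGSF21: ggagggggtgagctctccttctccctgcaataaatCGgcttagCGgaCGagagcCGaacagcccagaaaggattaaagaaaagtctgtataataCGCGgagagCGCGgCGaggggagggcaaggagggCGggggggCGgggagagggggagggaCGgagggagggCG
NECTIN2: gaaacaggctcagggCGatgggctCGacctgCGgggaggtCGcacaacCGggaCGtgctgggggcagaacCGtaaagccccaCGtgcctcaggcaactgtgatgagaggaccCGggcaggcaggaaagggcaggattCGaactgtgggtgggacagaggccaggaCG
The last 4 come from genes with the most FLAG-only peaks among those without a ZMYND8 peak. They are chr1:234747002-234747214 between genes at -1184 bp from IRF2BP2, a transcriptional co-repressor, chr2:28614917-28615083 in an intron of an overlapping gene at -315 bp from FOSL2, an AP-1 subunit, chr16:125496-125754 in an intron of an overlapping gene at -1381 bp from MPG, a DNA repair glycosylase, and chr16:4422642-4422885 in an intron at 915 bp from VASN, which encodes a membrane protein that binds TGF-beta.
IRF2BP2: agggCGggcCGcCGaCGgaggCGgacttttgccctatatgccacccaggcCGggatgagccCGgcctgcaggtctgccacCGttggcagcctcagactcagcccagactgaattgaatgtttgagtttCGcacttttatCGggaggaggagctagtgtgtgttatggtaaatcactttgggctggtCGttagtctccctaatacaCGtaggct
FOSL2: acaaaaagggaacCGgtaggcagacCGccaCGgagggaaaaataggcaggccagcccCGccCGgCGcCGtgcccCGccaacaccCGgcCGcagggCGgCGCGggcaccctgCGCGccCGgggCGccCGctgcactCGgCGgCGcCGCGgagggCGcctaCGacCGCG
MPG: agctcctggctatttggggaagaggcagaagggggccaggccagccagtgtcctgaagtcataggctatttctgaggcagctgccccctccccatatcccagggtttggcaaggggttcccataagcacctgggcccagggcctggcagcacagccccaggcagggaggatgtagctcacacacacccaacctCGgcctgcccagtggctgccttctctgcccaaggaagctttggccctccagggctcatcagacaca
VASN: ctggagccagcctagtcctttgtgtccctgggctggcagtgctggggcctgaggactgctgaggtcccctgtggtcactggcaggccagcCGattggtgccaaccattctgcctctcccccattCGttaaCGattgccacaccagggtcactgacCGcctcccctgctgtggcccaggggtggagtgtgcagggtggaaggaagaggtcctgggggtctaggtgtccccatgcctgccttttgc
The FOSL2 peak was the densest of the printed sequences, with 27 CpGs and a CpG observed over expected ratio of 1.07. The MPG peak held 1 CpG and a ratio of 0.0401, and the VASN peak 4 CpGs and a ratio of 0.163, although their GC content was 62.2% and 63.5%. Thus these 3 peaks lay on GC-rich DNA but differed in how many CpGs that DNA held. With 1 peak per gene, they do not describe the other FLAG-only peaks at the most densely bound starts.

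FLAG-only peaks were mostly short, and introns held the largest share of them. Their median width was 208 bp (quartiles 167 to 289 bp), and 47.3% (46.6 to 48.0%) had the 167 bp that is the minimum of the list. Narrow FLAG-ZMYND8 peaks at gene starts that did overlap a ZMYND8 peak, called shared peaks here, had a median of 330 bp, and 17.1% were of minimum width. The difference was 30.2 percentage points (28.9 to 31.5). A wider peak has more bases with which to touch a ZMYND8 peak, so the rule itself favours short peaks and this difference is a description. Introns held 46.1% of FLAG-only peak midpoints, UTRs 11.5%, non-coding exons 11.3%, coding exons 8.11% and the space between genes 22.9%. For shared peaks the intron share was 37.5% and the UTR share 20.6%. Counting all gene types, 7285 FLAG-only peaks (35.4%) lay within 3 kb of 2 or more gene starts, so one peak can count for several genes. A protein-coding start was in reach of 14715 (71.6%).

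FLAG-only peaks piled up just downstream of the start, but less sharply than shared peaks. The fullest 100 bp bin began at 100 bp downstream and held 1104 peaks (5.37%). On the upstream side the fullest bin began at -300 bp and held 631 (3.07%), whereas the last 100 bp before the start held 543 (2.64%). Within 1000 bp of the start, 59.2% (58.3 to 60.1%) lay downstream, compared with 68.3% (66.8 to 69.8%) of shared peaks. Only 35.1% of FLAG-only peaks were within 500 bp of a start, against 62.7% of shared peaks, and the median distances were 812 and 365 bp. The profile of FLAG-only peaks thus had a downstream maximum and a lower upstream one, at genes with and without a ZMYND8 peak.

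**Figure D1:**
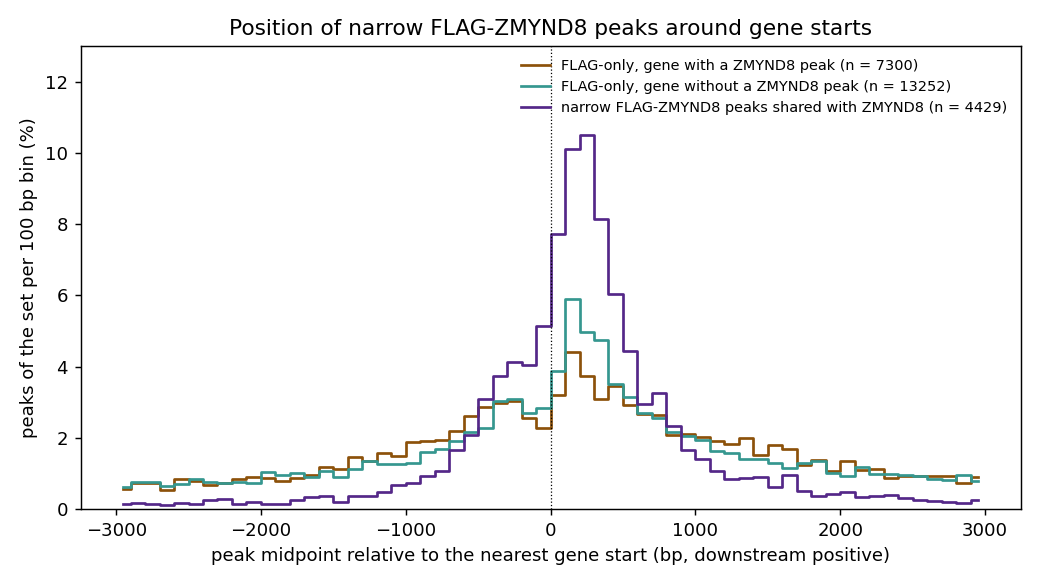
Share of peaks (%) per 100 bp bin against the position of the peak midpoint relative to the nearest gene start (bp, downstream positive), for FLAG-only peaks at genes with (n = 7300) and without (n = 13252) a ZMYND8 peak within 3 kb, and for shared narrow peaks (n = 4429). The shared peaks rise to 10.5% in their fullest bin, whereas FLAG-only peaks reach 4.41% at genes with a ZMYND8 peak and 5.90% at genes without.

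Among 20098 protein-coding genes, 9908 had at least 1 FLAG-only peak within 3 kb of the start, which is 49.3% of all. A ZMYND8 peak lay there for 6856 genes, or 34.1%. Both kinds were found at 4221 genes. They made up 42.6% of genes with a FLAG-only peak and 61.6% of those with a ZMYND8 peak. The other 5687 genes with a FLAG-only peak, 57.4% of them and 28.3% of all protein-coding genes, had no ZMYND8 peak in the window. A ZMYND8 peak without a FLAG-only peak was present at 2635 genes, and neither at 7555. The gene groups below are read against these shares of all protein-coding genes.

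The question posed by this split is whether starts that only FLAG-ZMYND8 marked resemble those where the antibody to ZMYND8 also found a peak. Most starts of both classes were CpG-rich, and the class with a ZMYND8 peak more so. A start was called CpG-rich when the DNA within 500 bp had at least 50% GC and a CpG observed over expected ratio of at least 0.6. This applied to 82.1% (80.9 to 83.2%) of genes with both kinds of peak and to 71.8% (70.6 to 72.9%) of genes with FLAG-only peaks alone, a difference of 10.4 percentage points (8.70 to 12.0). With only peaks wider than the minimum of their list, the difference was 5.98 points (3.97 to 7.91). Genes with a ZMYND8 peak and no FLAG-only peak were CpG-rich in 81.8%, close to the class with both. Genes with no peak in either list were CpG-rich in 24.5%, which is 47.3 percentage points (45.7 to 48.8) below the genes with FLAG-only peaks alone, and all protein-coding genes in 57.7%. Sequence around the gene start was not used to choose the peaks. The median CpG ratio was 0.788 with a ZMYND8 peak and 0.741 without, and the median GC content 63.8% and 61.7%. Median gene length, by contrast, was 30.6 and 29.6 kb.

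The same relation was seen when genes were arranged by CpG content. Protein-coding genes were ranked by CpG ratio and cut into 10 groups of equal size. From the lowest to the highest group, the share with a FLAG-only peak went from 11.9% to 69.6%, and the share with a ZMYND8 peak from 5.97% to 57.7%. The share with both went from 2.94% to 37.8%, higher in each group than in the one before. The share with FLAG-only peaks and no ZMYND8 peak, which is what remains of the FLAG-only share once genes with both are taken away, was 9.00% in the lowest group, 37.1% in group 6 of 10 and 31.8% in the highest. Between group 6 and the highest, the share with any FLAG-only peak went from 62.4% to 69.6% and that with a ZMYND8 peak from 42.0% to 57.7%. Among genes with a FLAG-only peak, 45.9% of CpG-rich starts (3466 of 7547) and 32.0% of CpG-poor starts (755 of 2361) also had a ZMYND8 peak, a difference of 13.9 percentage points (11.7 to 16.1). Over all protein-coding genes, a ZMYND8 peak lay at 48.5% of CpG-rich and 14.5% of CpG-poor starts. These shares cannot be set freely against those of genes with a FLAG-only peak. The rule removes FLAG-ZMYND8 peaks that overlap a ZMYND8 peak, so a gene with no other FLAG-ZMYND8 peak drops out. Of the 2635 genes with a ZMYND8 peak and no FLAG-only peak, 63.3% had such an overlapping peak. The part of this removal at CpG-rich and CpG-poor starts was not tested.

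**Figure D2:**
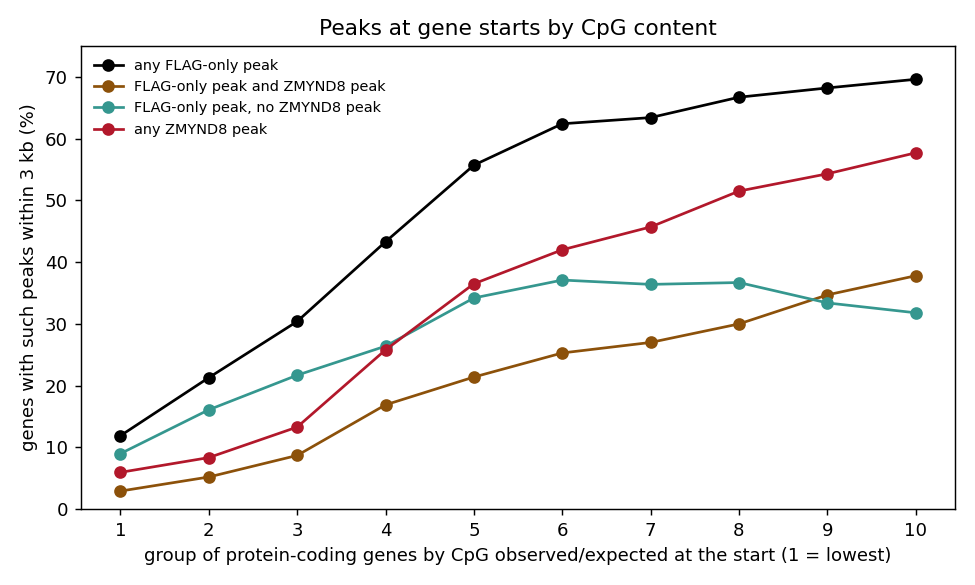
Share of protein-coding genes (%) with each kind of peak within 3 kb of the start, against 10 equal groups of genes ranked by CpG observed over expected ratio within 500 bp of the start (1 is the lowest). The line for any FLAG-only peak ends at 69.6%, that for both kinds of peak at 37.8%, and that for FLAG-only peaks without ZMYND8 at 31.8% after its highest point of 37.1% in group 6.

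Promoters that fire in both directions are common in CpG islands. A start was counted as divergent when another protein-coding gene began within 1000 bp upstream on the other strand. Of genes with both kinds of peak, 12.8% (542) were divergent, and of genes with FLAG-only peaks alone 10.6% (604), a difference of 2.22 percentage points (0.941 to 3.52). Genes with a ZMYND8 peak and no FLAG-only peak were divergent in 12.0%. Genes with no peak in either list were divergent in 3.16%, and all protein-coding genes in 8.47%. Partners in a divergent pair share their peaks, so they are not independent genes.

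In both classes, most genes had a single FLAG-only peak. Of genes with a ZMYND8 peak, 54.5% had 1 FLAG-only peak, 28.7% had 2 and 12.1% had 3, up to a maximum of 6. Of genes without, 51.4% had 1, 28.4% had 2 and 13.3% had 3, up to 7. The share with 2 or more was 45.5% with and 48.6% without a ZMYND8 peak, a difference of -3.08 percentage points (-5.06 to -1.09). Its direction depended on the rule: requiring 50% reciprocal overlap before a peak counts as shared turned it to 8.46 points, and transcript starts in place of gene starts to 5.42 points. The rule removes FLAG-ZMYND8 peaks that touch a ZMYND8 peak, which only genes with such a peak can lose. Counting FLAG-ZMYND8 peaks of any kind, 78.6% of genes with and 50.4% of genes without a ZMYND8 peak had 2 or more (difference 28.1 points, 26.3 to 29.9). Where a gene had several FLAG-only peaks, the median spacing of neighbouring midpoints was 1028 bp, and 9.27% of these spacings were within 500 bp.

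The 6 genes with the most FLAG-only peaks beside a ZMYND8 peak, by a fixed rule with ties broken by summed width, were VGF, ELF2, IGSF21, BCAT2 and NECTIN2 with 6 each and RCOR2 with 5. VGF encodes a secreted neuropeptide precursor, BCAT2 the mitochondrial branched-chain aminotransferase, and RCOR2 a CoREST family co-repressor. At ELF2 and BCAT2 the ZMYND8 peak was itself overlapped by a further FLAG-ZMYND8 peak. At IGSF21 it was not: a 151 bp ZMYND8 peak at 113 bp stood 92 bp from the FLAG-only peak at -138 bp printed above. At RCOR2, a 380 bp ZMYND8 peak at -1306 bp stood between FLAG-only peaks at -1999 bp and -490 bp. At VGF and NECTIN2 the ZMYND8 peaks lay far downstream, at 2287 and 2457 bp. All 6 starts were CpG-rich.

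Without a ZMYND8 peak in the window, IRF2BP2, CDH24, HOXA3, FOSL2, MPG and VASN had 7 FLAG-only peaks each, the highest number of any protein-coding gene. Their summed width was from 1246 bp at VASN to 3228 bp at IRF2BP2. CDH24 encodes a cadherin and HOXA3 a homeodomain factor of anterior patterning. The limit of the window mattered for a pair of them. At IRF2BP2 the outermost FLAG-only peak was 403 bp from a ZMYND8 peak outside the window, and at HOXA3 it was 240 bp. At FOSL2, by contrast, the nearest ZMYND8 peak was at least 63590 bp away from each of its peaks, at MPG 20785 bp and at VASN 17969 bp. MPG was the exception in sequence, with a CpG ratio of 0.288 around its start, whereas the other 5 starts were CpG-rich.

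**Figure D3:**
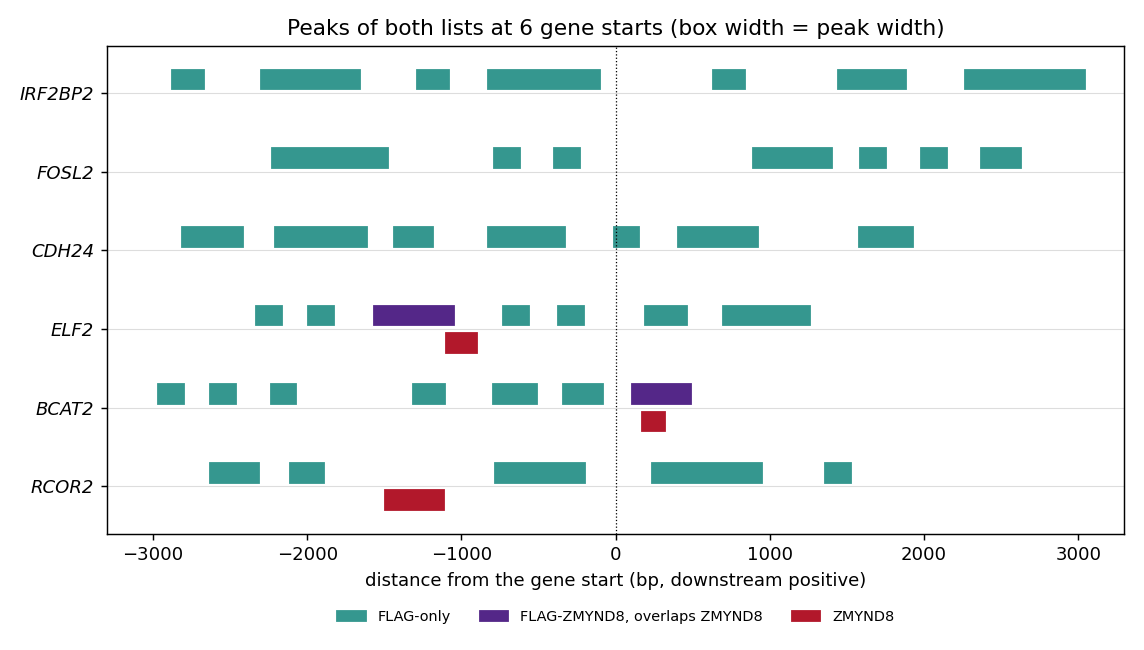
Peaks of both lists around 6 of these gene starts, against the distance from the gene start (bp, downstream positive), with each box as wide as its peak. IRF2BP2, FOSL2 and CDH24 show 7 FLAG-only peaks each and no ZMYND8 peak, ELF2 and BCAT2 show 6 FLAG-only peaks beside a ZMYND8 peak that a FLAG-ZMYND8 peak overlaps, and RCOR2 shows 5 around a ZMYND8 peak that none overlaps.

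Among the loci the study looked at, CLCN7 had 1 FLAG-only peak and PPP4C, a protein phosphatase catalytic subunit, had 3, with no ZMYND8 peak within 3 kb of either start. SLC7A5, an amino acid transporter, had FLAG-only peaks at -2759 and 2717 bp on either side of a 3380 bp FLAG-ZMYND8 peak that overlapped a ZMYND8 peak of 2894 bp. At CREBBP, an acetyltransferase of histone H3, the FLAG-only peak was 524 bp wide at 1046 bp, and a ZMYND8 peak of 220 bp stood at -335 bp with no FLAG-ZMYND8 peak over it. ETS2, an ETS family factor, had no FLAG-only peak, because its single FLAG-ZMYND8 peak overlapped a ZMYND8 peak. These 5 loci thus included FLAG-only starts, starts where a FLAG-only peak flanked a shared peak, and starts where the lists marked separate places.

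Separate places follow in part from the rule, since a FLAG-only peak overlaps no ZMYND8 peak by definition. Around gene starts of all types with a ZMYND8 peak, 7300 FLAG-only peaks were found, and their median gap to the nearest ZMYND8 peak was 766 bp (quartiles 331 to 1526 bp). Within 167 bp, the minimum peak width, lay 12.2%, and within 1000 bp 60.4%. For the 13252 at genes without a ZMYND8 peak, the median gap was 31095 bp. At 2420 of the 4221 protein-coding genes with both (57.3%, 55.8 to 58.8%), a ZMYND8 peak was also overlapped by another FLAG-ZMYND8 peak, as at ELF2. At the other 1801 (42.7%), no ZMYND8 peak in the window was overlapped, as at IGSF21. Lack of overlap was not particular to genes with a FLAG-only peak. A FLAG-ZMYND8 peak that overlapped a ZMYND8 peak was present at 57.3% of genes with both. Of the 2635 genes with a ZMYND8 peak and no FLAG-only peak, 63.3% had one. At the 1801 genes, 52.5% of ZMYND8 peaks had the minimum width of their list, 151 bp, compared with 38.4% over all 4221 genes. Overlap is harder to reach for a short peak, so this too is tied to the rule.

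At genes with both, the nearest FLAG-only peak was farther from the start than the nearest ZMYND8 peak in 59.7% (58.3 to 61.2%), with median distances of 601 and 420 bp. The pair stood on opposite sides of the start in 57.2% (55.7 to 58.7%). In 32.1% the ZMYND8 peak was downstream and the FLAG-only peak upstream, and in 25.1% the reverse. Since a FLAG-ZMYND8 peak on top of the ZMYND8 peak was removed by the rule, the side that the ZMYND8 peak takes was less available to FLAG-only peaks. The distances are tied to the rule as well. Shared peaks, which it removes, lay nearer the start than FLAG-only peaks over all gene starts (medians 365 and 812 bp). Of FLAG-only peaks within 1000 bp of the start, 55.5% lay downstream at genes with a ZMYND8 peak and 61.1% at genes without, and the part of the removal in this was not tested.

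Genes for partners of ZMYND8 and for other acetyl-lysine machinery were examined next, in lists given by name. Of 15 NuRD subunit genes, 11 (73.3%) had one, compared with 49.3% of all protein-coding genes. Of these, 6 also had a ZMYND8 peak and 5 did not. CHD4, the remodelling ATPase, had 5 FLAG-only peaks and 2 ZMYND8 peaks, HDAC1 and RBBP4 had 3 FLAG-only peaks and 1 ZMYND8 peak each, and MTA2 and MBD3 had 3 and no ZMYND8 peak. HDAC2 had no peak in either list, whereas CHD3, MTA3 and CDK2AP1 had ZMYND8 peaks and no FLAG-only peak. These starts were CpG-rich in 86.7%, compared with 57.7% of all genes, and the part of CpG content in this count was not tested. Over all protein-coding genes, 65.1% of CpG-rich and 27.7% of CpG-poor starts had a FLAG-only peak. The lists below are to be read beside these shares as well as beside the 49.3%.

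Of 10 genes for CoREST and KDM5 demethylases, 8 had FLAG-only peaks, 4 of them beside a ZMYND8 peak. RCOR2 led with 5, followed by RCOR3 and KDM5B with 3. KDM1A and KDM5A had 1 each and no ZMYND8 peak. KDM5C, the demethylase known to work with ZMYND8, had a ZMYND8 peak and no FLAG-ZMYND8 peak. HMG20B had neither.

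Among 14 Integrator subunits, which process small nuclear RNAs and attenuate transcription, 11 had a FLAG-only peak and 8 of these had no ZMYND8 peak. INTS12 had 4 FLAG-only peaks and INTS6 and INTS7 had 3, all without ZMYND8. INTS4, INTS8 and INTS11 had no peak of either list. Of 13 genes for H3 acetyltransferases and their adaptors, 8 had a FLAG-only peak and 7 of these also had a ZMYND8 peak. TADA2A had 4, and KAT6B and KAT2A, catalytic subunits, had 3 each. KAT7 was the one with a FLAG-only peak alone. EP300 had a ZMYND8 peak and no FLAG-ZMYND8 peak, while KAT5 and KAT8 had none. With 14 and 13 genes these lists are too short for a comparison of their make-up, and none was tested.

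Among 5 genes for ZMYND8, its relatives and its zinc finger partners, ZNF687 had 2 FLAG-only peaks and ZNF592 had 1, both with a ZMYND8 peak, whereas ZMYND11 and ZNF532 had no peak. The ZMYND8 gene had 4 FLAG-ZMYND8 peaks at its start and none of them met the rule. Of 8 genes for BET proteins and P-TEFb, which read acetylated histones and release paused polymerase, 5 had a FLAG-only peak. BRD2 had 1 without a ZMYND8 peak, BRD3 and HEXIM1 had 1 and a ZMYND8 peak, and CDK9 and LARP7 had no peak of either list.

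Genes for basic cellular machinery had FLAG-only peaks with and without a ZMYND8 peak. Of 81 cytosolic ribosomal protein genes, 58 (71.6%) had a FLAG-only peak, 19 with and 39 without a ZMYND8 peak. Of 78 mitochondrial ribosomal protein genes it was 44 (56.4%), 11 with and 33 without. Of 35 aminoacyl tRNA synthetase genes, which charge tRNAs, 28 (80.0%) had one, 10 with and 18 without. The proteasome list gave 28 of 48 (11 with, 17 without), complex I of the respiratory chain 24 of 37 (12 and 12), and Mediator 19 of 28 (9 and 10). For all protein-coding genes with a FLAG-only peak, the split was 42.6% with and 57.4% without, and no list's split was tested against it. These starts were CpG-rich in 79.2 to 92.9% of each list, and 65.1% of all CpG-rich protein-coding starts had a FLAG-only peak.

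HOX genes, the homeodomain factors that pattern the body axis, had the highest share of the lists examined, 33 of 39 (84.6%), of which 20 also had a ZMYND8 peak. They stand in clusters with closely spaced starts, so that neighbouring genes share peaks. Zinc finger genes named ZNF had a lower share, 195 of 508 (38.4%), although 71.7% of their starts were CpG-rich. Of these, 76 also had a ZMYND8 peak and 119 did not. A further 114 had a ZMYND8 peak and no FLAG-only peak, some of them with FLAG-ZMYND8 peaks that did not meet the rule.

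FLAG-only peaks were few in the families of olfactory and taste receptors, protocadherins, keratin-associated proteins and beta defensins. The lists hold no expression values, so the part of expression in this was not tested. Of 414 olfactory receptor genes, 5 had one (1.21%), and these, named after their values were seen, were OR1F1, OR2H2, OR2B2, OR2Y1 and OR6J1 with 1 each. Among 53 clustered protocadherins, which are neuronal adhesion proteins, 3 had 1 peak each, named in the same way as PCDHGA11, PCDHA11 and PCDHGC3. Of 94 keratin-associated protein genes 8 had one, all without a ZMYND8 peak, and of 24 bitter taste receptors and 40 beta defensins none did. CpG-rich starts made up 0 to 9.43% of these families, and 27.7% of all CpG-poor protein-coding starts had a FLAG-only peak.

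**Figure D4:**
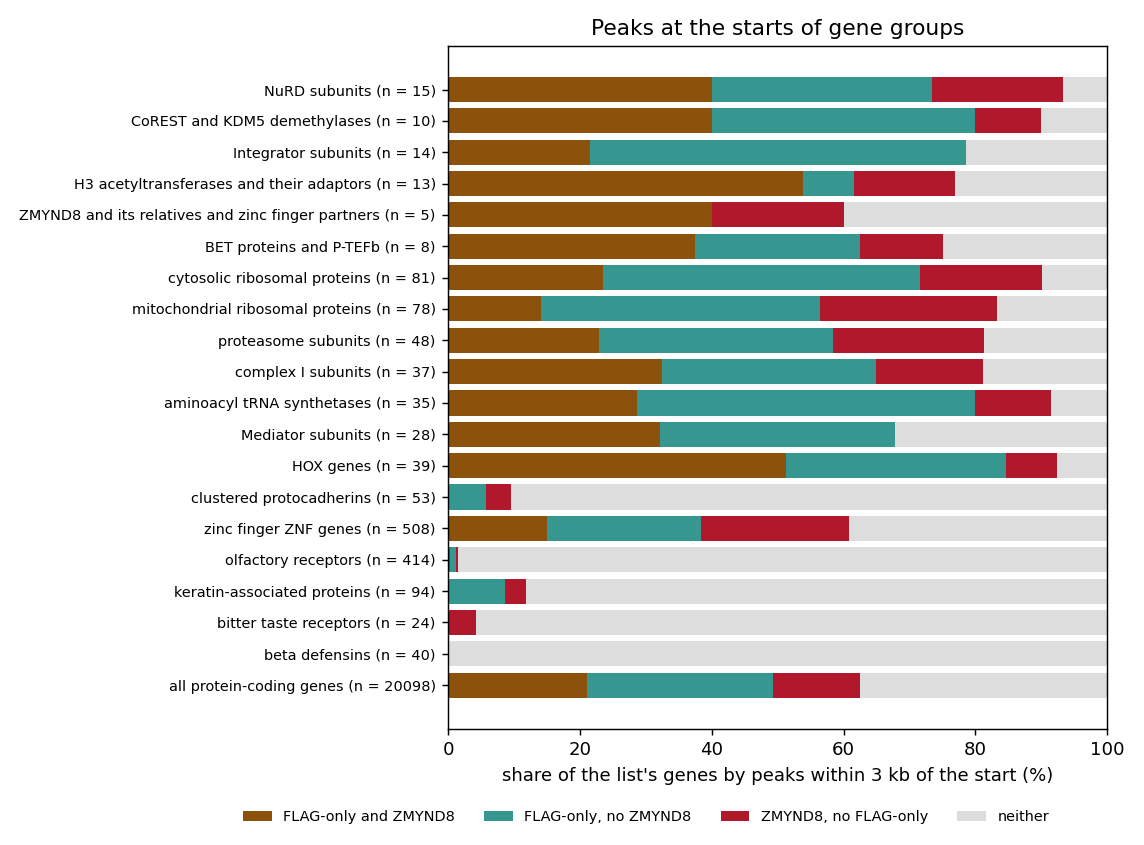
Share of the genes of each list (%, n in parentheses) with FLAG-only and ZMYND8 peaks, FLAG-only peaks without ZMYND8, ZMYND8 peaks without FLAG-only peaks, or neither, within 3 kb of the start. HOX genes reach 84.6% with a FLAG-only peak against 49.3% of all protein-coding genes, and olfactory receptors 1.21%.

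Not all FLAG-only peaks belonged to protein-coding genes. The nearest start was that of a protein-coding gene for 12605 (61.3%) and that of a lncRNA, a long transcript without a coding frame, for 5230 (25.4%). Of 18592 lncRNA genes, 4937 (26.6%) had a FLAG-only peak, and of these 34.1% (32.8 to 35.4%) also had a ZMYND8 peak. Position beside coding genes accompanied much of this: among lncRNA starts more than 3 kb from any protein-coding start, 17.8% (17.2 to 18.4%) had a FLAG-only peak and 24.3% of these a ZMYND8 peak, compared with 62.0% and 45.5% of the other lncRNA starts. Small RNA genes were at 12.0% (snRNA), 16.5% (miRNA) and 17.5% (snoRNA), and many of them lie inside other genes. Processed pseudogenes, reinserted copies of mRNAs, had a FLAG-only peak in 7.70%, of which 11.2% (9.18 to 13.7%) also had a ZMYND8 peak.

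Base composition differed in its medians between FLAG-only and shared peaks, with overlapping quartiles. In the 200 bp around the midpoint, the median GC content was 60.0% (quartiles 55.5 to 65.0%) and the median number of CpGs 8 (5 to 14), against 65.0% (60.0 to 69.5%) and 15 (10 to 20) for shared peaks at gene starts and 56.5% and 5 for FLAG-only peaks elsewhere. Narrow ZMYND8 peaks at gene starts that no FLAG-ZMYND8 peak touched had 64.0% and 13. FLAG-only peaks also lay farther from the start, where CpG content is lower, and the part of distance in this was not tested.

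FLAG-only peaks also lay on repeated DNA more often. A peak was called repeated when at least 50% of the 13-base words in its central 200 bp occurred 10000 times or more in hg19. This held for 2180 FLAG-only peaks at gene starts (10.6%, 10.2 to 11.0%) and for 60 shared peaks (1.35%, 1.05 to 1.74%), a difference of 9.25 percentage points (8.69 to 9.78). For ZMYND8 peaks without FLAG overlap it was 1.88%, and for FLAG-only peaks away from gene starts 19.5%. As a background, 4.82% of windows every 100 kb of the genome were repeated, as were 6.11% of windows 1 kb upstream and 3.07% of windows 1 kb downstream of protein-coding starts. FLAG-only peaks lay farther from the start than shared ones, and the part of distance in the difference was not tested beyond a division into 2 ranges, inside which distances still differ. Within 1 kb of the start, 5.48% (5.08 to 5.91%) of FLAG-only and 0.647% (0.435 to 0.960%) of shared peaks were repeated, and from 1 to 3 kb 17.4% (16.6 to 18.2%) and 5.02% (3.65 to 6.87%). Among peaks wider than the minimum, the shares were 7.49% and 0.980%. The share was 11.0% at genes with and 10.4% at genes without a ZMYND8 peak, and the difference of without minus with was -0.588 percentage points, with an interval from -1.48 to 0.288 that includes 0. How reads from repeated DNA were placed is not given in the sources used here, and its part in these peaks was not tested.

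**Figure D5:**
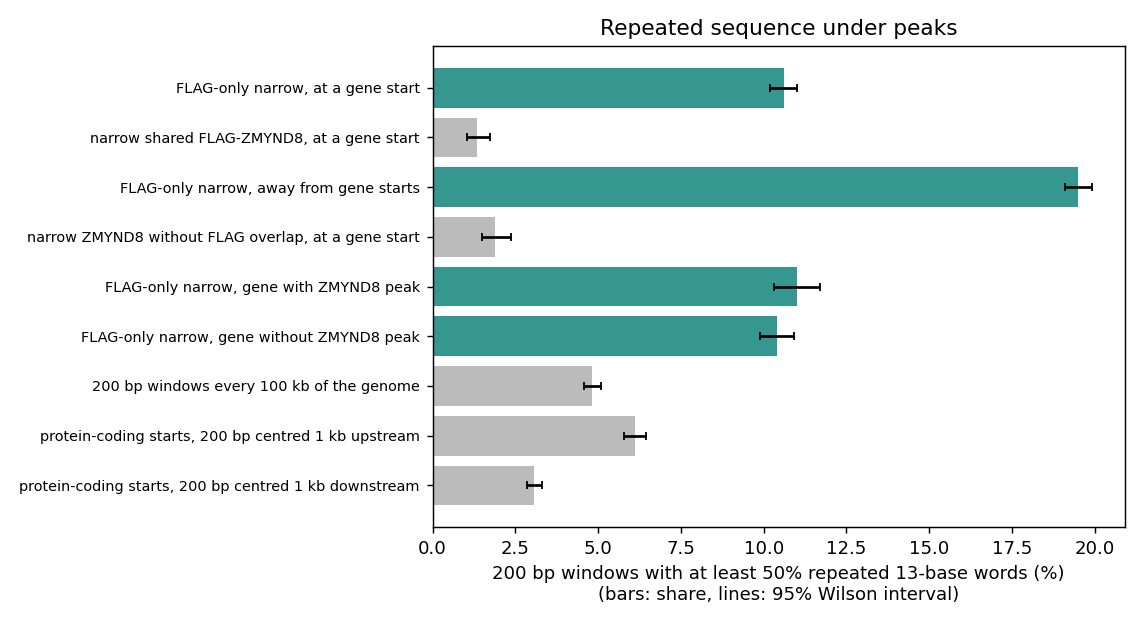
Share of 200 bp windows (%) in which at least 50% of 13-base words are repeated, for sets of peaks and for windows of the genome and near protein-coding starts. Bars are shares and lines 95% Wilson intervals. FLAG-only peaks reach 10.6% at gene starts and 19.5% elsewhere, whereas shared peaks are at 1.35%.

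Promoter letters were compared between both classes of gene for 9 motifs, and the interval of the difference left out 0 for 4 of them. In the window from 250 bp upstream to 50 bp downstream of the start, searched on both strands, the GC box GGGCGG was present in 68.2% of genes with both kinds of peak, 63.9% of genes with FLAG-only peaks alone, 30.2% of genes with no peak and 52.2% of all protein-coding genes. The difference between both classes was 4.29 percentage points (2.41 to 6.17), and within CpG-rich starts it was -0.205 (-2.14 to 1.72). The ETS letters CCGGAAG were in 15.1% and 13.9% of the classes and 11.8% of all promoters. The CCAAT box was in 33.8% and 36.1%, a difference of -2.23 points (-4.12 to -0.334), against 35.8% of all promoters. The E-box CACGTG was in 9.59% and 8.28%, a difference of 1.31 points (0.181 to 2.47), against 8.33% of all. Within CpG-rich starts the intervals of both included 0. The YY1 letters AAGATGG were in 5.21% and 6.28%, a difference of -1.07 points (-1.98 to -0.133) and of -1.50 (-2.56 to -0.423) within CpG-rich starts, against 5.64% of all promoters. TATAAA was in 6.18% and 6.47%, compared with 18.1% of genes with no peak and 10.9% of all. The AP-1 letters TGANTCA were in 4.19% and 4.57%, against 9.78% of genes with no peak and 6.37% of all. These are matches of letters, with no adjustment for the number of motifs, and say nothing of a factor's binding.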

How the data were processed

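The reads were mapped by the authors to hg19 with BWA-MEM (BWA 0.7 in the submitters' processing notes) and profiles were generated with HOMER. Peak-calling settings and the way replicates were combined are not given in the sources used here. Each list that the authors deposited gives chromosome, start, end, name, a score that is 1 in every row and so ranks nothing, and strand. Peak widths and midpoints were computed from the deposited positions. Gene starts were taken from GENCODE release 44, mapped to GRCh37 (the build of hg19), with 63827 genes on the chromosomes used, 20098 of them protein-coding. Peaks overlapped when they shared 1 bp. Shares were given 95% Wilson intervals and differences Newcombe intervals, and a difference was called where its interval left out 0. No replicate enters and depth is unknown.

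The peaks and gene lists were chosen with earlier results of these data known. Genes were named by rule: loci the study looked at, the 6 genes with the most FLAG-only peaks in each class, and in each complex up to 3 genes with the most such peaks and those with none where 3 or fewer. Other named members of complexes were chosen after their values were seen. Sequences came from the GRCh37 reference, 1 per gene, as the FLAG-only peak nearest the start that was at most 300 bp and overlapped no UTR. Not all of them are printed. The 8 printed sequences held 0% repeated words. Of those not printed, the peak at PPP4C held 57.4%, that at BCAT2 26.2% and that at SLC7A5 20.0%. The unprinted peaks at VGF, RCOR2 and HOXA3 held 0%. Repeated DNA was measured by 13-base word counts over both strands of the genome. Functions were tested on simulated lists, in which 0 of 1000 planted peaks were misplaced. Analyses used Python 3.11.15, numpy 2.4.6, pandas 2.3.3, scipy 1.17.1 and matplotlib 3.10.9. Alternatives were a 1 kb window, a 500 bp gap to ZMYND8 peaks, 50% reciprocal overlap, peaks wider than the minimum, transcript starts, leaving out chromosome X and, added after seeing the data, leaving out peaks in repeated DNA. The histone mark and input libraries were not analysed here. Some items are not reported here.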

Additional observations from a re-analysis of the deposited data

How the results depend on the processing

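Of 42 values under alternatives, 36 kept their direction and stayed on the same side of the interval test or within 1.5 times the count reported. A 1 kb window left 11711 FLAG-only peaks and 2295 protein-coding genes with both kinds of peak, and peaks wider than the minimum left 11592 and 1895, where both alternatives take fewer peaks by construction. The difference in the share of genes with 2 or more FLAG-only peaks reversed to 8.46 percentage points with 50% reciprocal overlap and to 5.42 with transcript starts, both of which keep more FLAG-only peaks, and was -14.2 to -3.08 under the others and as reported. The difference in CpG-rich starts was 5.98 points with wider peaks and up to 12.4 with the 1 kb window, and that in divergent neighbours 1.43 to 3.03. Leaving out peaks in repeated DNA, chosen after seeing the data, gave 18372 peaks, 9406 genes and a CpG difference of 9.24 points. No paired analysis was possible because neither list carries a replicate number, and leaving out a replicate could not be done either. The unknown depth limits every absence: a start without a ZMYND8 peak may hold signal below the caller's limit.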

Other observations

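FLAG-only peaks were unevenly shared among chromosomes. On chromosome X, 200 of 869 protein-coding genes (23.0%, 20.3 to 25.9%) had one at the start, compared with 36.2% on chromosome 21, the lowest autosome, and 64.9% on chromosome 22, the highest. The low share on chromosome X was not particular to FLAG-only peaks. It held 4.32% of protein-coding genes, but 3.00% of those with a ZMYND8 peak and no FLAG-only peak, and 1.61% of those with both. Of FLAG-ZMYND8 peaks on chromosome X, 37.9% met the whole rule, against 32.3% of the list. Of the chromosome X genes with a FLAG-only peak, 34.0% (27.8 to 40.8%) also had a ZMYND8 peak, and of those on chromosome 19 35.4% (32.0 to 38.9%), against 42.6% of all.

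Peak names in the FLAG-ZMYND8 list carry a number whose meaning is not given in the sources used here. Over 5 groups of equal size from the lowest to the highest number, the share of peaks that were FLAG-only at gene starts was 41.2%, 34.4%, 31.3%, 28.2% and 26.3%.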
